A study of Mus musculus with 63 samples.

Results

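The EGF receptor and ERK pathway was followed through 10 genes in the deposited RNA-seq, RNA immunoprecipitation (RIP) and ATAC-seq data of mice and cells with mutations in the long noncoding RNA gene Chaserr, in its neighbour Chd2, or in both. They are the EGF receptor ligands Hbegf, Areg, Ereg and Tgfa, the ephrin receptor Epha2, the phosphatases Dusp4, Dusp5 and Dusp6, and Phlda1 and Spry4. They are 10 of the 24990 rows of each expression table. The set was chosen by the measured rise of Hbegf and Epha2, as RNA-seq fold changes, in mouse embryonic fibroblasts (mEFs) mutated in both genes, so the values of that comparison are given as a description, without a test.

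Whole embryos at E9.5 and E13.5 and adult brains were WT or Chaserr+/-, with 3 libraries a group. The mEFs, primary cultures grown from E13.5 embryos, came in 4 sets, each with its own 3 WT libraries: Chaserr+/- (3 libraries), Chaserr-/- (3), Chd2m/m (2) and the double mutant Chaserr-/- Chd2m/m (3). The Chaserr- allele lacks the promoter and the first exon. It came from 2 founder lines used interchangeably, except in the double mutants, for which it was made anew on the Chd2m/m background. The Chd2m allele carries a small frameshift deletion in the third exon, after which the mRNA is still made and little CHD2 protein remains. The labels place the WT mEFs of the Chaserr+/- and Chaserr-/- sets in the same pregnancy as their mutants, and name a Chaserr+/- Chd2+/m cross for the WT mEFs of the double mutant set but a Chd2+/m cross for the double mutants themselves. No other treatment is given for any group. The RIP was made in Neuro2a, a mouse neuroblastoma line, with an antibody to CHD2 or with IgG, beside the input (2 libraries each). ATAC-seq covered 3 libraries each of Chaserr-/- and double mutant mEFs and of their WT mEFs.

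Total counts ran from 9672637 to 33192002 in the 41 libraries of embryos, brains and mEFs and from 7621335 to 20050508 in the 6 RIP libraries. Changes are log2 fold changes (log2 changes) with their standard error (SE). Levels are TPM, transcript shares that take account of gene length. Embryos were sequenced with the TruSeq kit and mEFs with the SENSE kit, and brains with both (TruSeq for replicate 3 of each group). The Neuro2a libraries, input included, were made from rRNA-depleted RNA and the others with mRNA kits. A level set across tissues thus also crosses kits. A marker list of 10 fibroblast genes summed to between 6430 and 12000 TPM in mEFs, and 7 neuron genes to between 3880 and 4530 TPM in WT brains and to far less in mEFs. A list of 17 macrophage genes summed to between 242 and 1610 TPM in mEFs, so these cultures also carried RNA of macrophage genes. The labels were checked by the targeted genes. Chaserr was at 0 in all Chaserr-/- mEFs and at most at 0.23 TPM in double mutants, against at least 8.63 TPM in WT mEFs. WT mEFs of the double mutant set had it at between 79.97 and 93.67 TPM, and all other WT mEFs at 22.21 TPM or less. The reason for this difference between WT mEFs was not tested. The log2 fold change of Chaserr+/- over WT ran from -0.61 to -0.90 in the 4 tissues and cultures. Chd2 mRNA, which is present in every mutant, was at between 26.9 and 31.0 TPM in double mutants against between 7.43 and 7.80 TPM in their WT mEFs.

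Ligands of the EGF receptor are made as membrane-bound precursors and released by proteases, and on binding they switch on the receptor's kinase and, through RAS, RAF and MEK, the kinase ERK. ERK then drives transcription of immediate early genes such as Fos and Egr1, and of inhibitors that turn the pathway down again. Of the inhibitors among these genes, Dusp4, Dusp5 and Dusp6 take phosphate off ERK and Spry4 acts further up, towards RAS and RAF. In fibroblasts growth factors of the serum are a known trigger of the pathway. In bulk samples such as these, fewer cells of a type and less RNA per cell cannot be told apart.

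The genes lie on several chromosomes, in GENCODE vM1 (mm9). Epha2 lies at chr4:140857155-140885299 on the plus strand. Ereg (chr5:91503643-91522675) and Areg (chr5:91568641-91577458) are neighbours on the plus strand. Promoter sequences from RefSeq (GRCm38.p6) were at hand for 5 of the 10 genes: Epha2, Areg, Tgfa, Dusp6 and Dusp5. They were searched on both strands, from 250 bases before to 50 after the start site, for the cyclic AMP response element TGACGTCA, for TGANTCA (which holds AP-1 sites), for the ETS site CCGGAAG, for the EGR site GCGNGGGCG and for the CArG box that serum response factor binds. The 150 bases that end at the start site are shown for the 3 genes with a match, with the match in capitals.

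Epha2: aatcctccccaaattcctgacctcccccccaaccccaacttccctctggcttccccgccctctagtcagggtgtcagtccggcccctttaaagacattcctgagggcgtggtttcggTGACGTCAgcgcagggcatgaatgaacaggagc
Areg: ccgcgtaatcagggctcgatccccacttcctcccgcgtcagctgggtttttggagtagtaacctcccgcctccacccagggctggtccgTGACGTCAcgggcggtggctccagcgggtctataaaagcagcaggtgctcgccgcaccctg
Dusp5: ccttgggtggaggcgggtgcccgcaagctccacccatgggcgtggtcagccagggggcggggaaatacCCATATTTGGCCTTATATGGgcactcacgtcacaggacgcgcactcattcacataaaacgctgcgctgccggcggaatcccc

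These stretches are chr4:141301071-141301220, chr5:91139449-91139598 and chr19:53528995-53529144 of GRCm38.p6, all on the plus strand. Epha2 and Areg each held 1 cyclic AMP response element, which starts 33 bases before the start site in Epha2 and 61 before it in Areg, and 1.79% of all 32851 promoters of this length hold one. Dusp5 held 2 CArG boxes directly side by side, the first of which starts 82 bases before the start site, and 1.63% of promoters hold such a box. The promoters of Tgfa and Dusp6 held none of the 5 motifs, and none of the 5 promoters held the other 3 motifs, which stand in 7.81% (TGANTCA), 8.86% (ETS) and 5.55% (EGR) of promoters. A match of letters says nothing of binding in these cells.

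In unmutated samples each ligand had its own distribution over tissues. Hbegf, which encodes heparin-binding EGF, ranged from 3.29 to 5.26 TPM in E9.5 embryos, from 7.37 to 10.1 TPM in E13.5 embryos, from 15.4 to 18.9 TPM in brains and from 22.3 to 106 TPM in the 12 WT mEF libraries. The ranges of these 4 sample types did not overlap. Ereg (epiregulin) was at 2.20 TPM or more in every WT mEF library, at 0.04 TPM or less in every WT embryo library and listed at 0 in brains and in the Neuro2a input. Areg (amphiregulin) was low throughout, between 1.11 and 3.66 TPM in WT mEFs and at most 0.43 TPM in WT embryos and brains. Tgfa, which encodes transforming growth factor alpha, was highest in brains instead. WT brains had it at 24.3, 30.6 and 34.8 TPM, above every other unmutated sample, where it ranged from 2.22 TPM in mEFs to 6.68 TPM in the Neuro2a input. Below brain, each group overlapped the next in the order of the means.

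**Figure D1:**
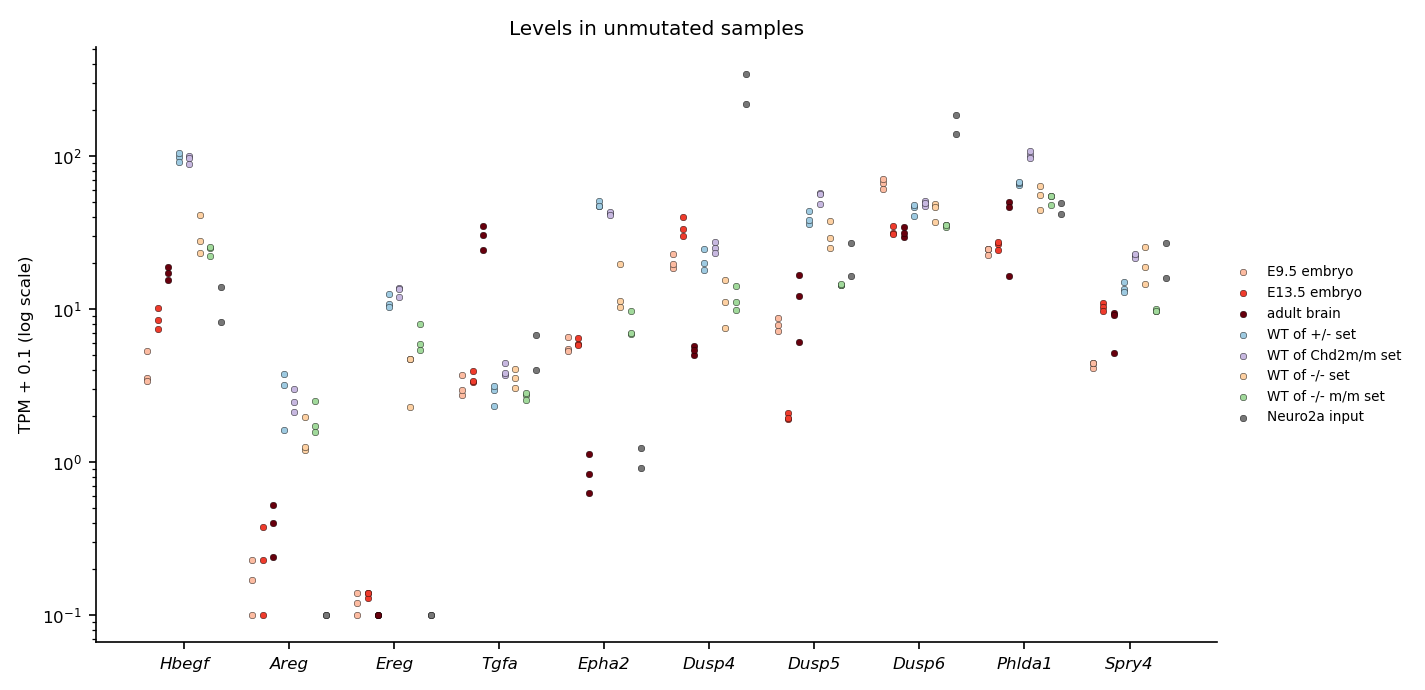
TPM + 0.1 (log axis) of the 10 genes in each unmutated library, by tissue or mEF set (3 libraries a group, 2 for the Neuro2a input). Tgfa stands highest in adult brain (mean 29.9 TPM), Ereg at the floor outside mEFs, and Dusp4 and Dusp6 highest in Neuro2a (means 283 and 164 TPM). The Neuro2a input was made from rRNA-depleted RNA, unlike the other libraries.

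Epha2, a receptor kinase for ephrin-A ligands, was at 5.28 to 6.54 TPM in E9.5 and 5.72 to 6.39 TPM in E13.5 embryos, which overlapped, at 0.53 to 1.04 TPM in brains and at 6.81 to 50.8 TPM in WT mEFs. Dusp6 was at means of 66.3 ± 4.84 TPM (SD, n = 3) in E9.5 embryos, 32.3 ± 2.22 TPM (SD, n = 3) in E13.5 embryos, 31.8 ± 2.53 TPM (SD, n = 3) in brains and between 34.49 and 51.0 TPM in the WT mEF libraries. The values of E13.5 embryos and brains overlapped. Dusp4 and Dusp6 were highest in the Neuro2a input, where Dusp4 stood at 221 and 345 TPM against at most 39.9 TPM in any other unmutated library. The input is also the only one of these made from rRNA-depleted RNA, and cell source and library type cannot be told apart. For Dusp5, Phlda1, Epha2 and Spry4 the brain values differed between the kits: Phlda1 was at 50.1 and 46.8 TPM in the SENSE libraries of WT brains and at 16.4 TPM in the TruSeq library. Over both genotypes, the SENSE mean was 2.54 times the TruSeq mean for Dusp5, 2.17 times for Phlda1, 1.69 times for Epha2 and 1.67 times for Spry4. The TruSeq libraries are also replicate 3 alone and the deeper ones, and kit, replicate and depth cannot be told apart. The order between brain and the other tissues is not read here for Dusp5, Phlda1 and Spry4, while Epha2 in WT brains was below every WT embryo library in both kits. The receptor gene Egfr, named after its values were seen, was at 2.36 ± 0.325 TPM (SD, n = 3) in E9.5 embryos, 14.2 ± 0.870 TPM (SD, n = 3) in E13.5 embryos, 6.48 ± 1.32 TPM (SD, n = 3) in brains and from 40.8 to 62.4 TPM as means of the 4 WT mEF sets.

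Between E9.5 and E13.5, WT embryos sequenced with 1 kit, 5 of the 8 genes tested passed edgeR's quasi-likelihood test at a Benjamini-Hochberg adjusted p under 0.05, 3 higher and 2 lower at E13.5. This comparison called 80.4% of all genes tested, so the count is below that of the background. Spry4 was at 4.02, 4.34 and 4.39 TPM at E9.5 and at 10.9, 10.3 and 9.68 TPM at E13.5, a log2 change of 1.02 (SE 0.0825, edgeR adjusted p = 2.18e-06). Hbegf rose by a log2 change of 0.85 (SE 0.186, edgeR adjusted p = 0.00206) and Dusp4 by 0.51 (SE 0.110, edgeR adjusted p = 0.00184). Dusp5 went the other way, from 8.69, 7.11 and 7.86 TPM to 1.82, 2.00 and 1.84 TPM, a log2 change of -2.31 (SE 0.170, edgeR adjusted p = 1.14e-06). Dusp6 fell by 1.29 on the log2 scale (SE 0.0665, edgeR adjusted p = 1.13e-07). The ranges of these 5 genes did not overlap between the ages (81.9% of all genes did not), and the phosphatases thus moved in both directions. Tgfa (-0.06), Epha2 (-0.20) and Phlda1 (-0.13) did not pass, and Areg and Ereg were too low to be tested. Of the 73 genes on the other pathway lists 69 were tested, 31 rose and 25 fell, and macrophage and neuron markers rose as well (17 of 17 and 7 of 7 passing), and their part in the members' changes was not tested. Of those other pathway genes the neuregulin Nrg3 had the largest change, a log2 change of 4.54 (SE 0.355, edgeR adjusted p = 1.77e-06), from 0.0633 to 1.80 TPM.

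In the double mutant mEFs, from which the set was drawn, all 10 genes had a log2 fold change above 0. Hbegf was at 25.0, 25.6 and 22.3 TPM in WT and at 57.5, 63.0 and 39.2 TPM in double mutants, a log2 change of 1.13 (SE 0.167) or 2.19-fold. Epha2 was at 6.81, 9.71 and 6.89 TPM in WT and at 22.2, 19.9 and 14.96 TPM in double mutants, a log2 change of 1.29 (SE 0.178) or 2.44-fold. In both genes replicate 3 was the lowest double mutant library and still lay above every WT library. Dusp5 was even in WT, at 14.4, 14.3 and 14.5 TPM, and stood at 28.7, 30.9 and 25.2 TPM in double mutants, a log2 change of 0.97 (SE 0.145). By size of the rise among the 14076 genes of this comparison, Epha2 ranked 17, Hbegf 32 and Dusp5 64.

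The other members had smaller values. The log2 fold change was 0.78 for Ereg, 0.68 for Spry4, 0.61 for Phlda1, 0.60 for Dusp4, 0.54 for Dusp6, 0.32 for Areg and 0.04 for Tgfa. Double mutant and WT ranges did not overlap for 8 of the 10 genes, all higher in double mutants, and overlapped for Areg and Tgfa. Over all genes 6.66% had such a gap upward, and edgeR called 0.0924% of genes. The median of the 10 was 0.65 and that of all genes -0.01. Over the 68 measured genes of the other pathway lists the median was 0.02, with 0.28 for the 12 other feedback inhibitors and 0.10 for the 18 immediate early and ERK-induced genes, and no test was made of these differences. Of these 68 genes edgeR called none in this comparison. Genes induced by ERK lay on both sides, as a pair named after their values were seen shows. Errfi1, an inhibitor of the EGF receptor, stood at a mean of 85.7 ± 10.1 TPM (SD, n = 3) in WT and 140.0 ± 10.2 TPM (SD, n = 3) in double mutants, above it in all 3 libraries. Fos, a first target of ERK, stood at a mean of 150 ± 7.38 TPM (SD, n = 3) in WT and 81.2 ± 21.3 TPM (SD, n = 3) in double mutants, below it in all 3 libraries. The 17 macrophage markers summed to between 588 and 857 TPM in double mutants and between 923 and 1030 TPM in their WT mEFs. Their part in the result was not tested. The summed fibroblast list overlapped, at 7510 to 7940 TPM in double mutants and 7150 to 8760 TPM in WT, as did the epithelial list, at 146 to 160 and 103 to 174 TPM. By gene, the median log2 change was -0.46 over the fibroblast list, -0.54 over the epithelial list and -0.41 over the macrophage list, and their part in the result was not tested either.

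**Figure D2:**
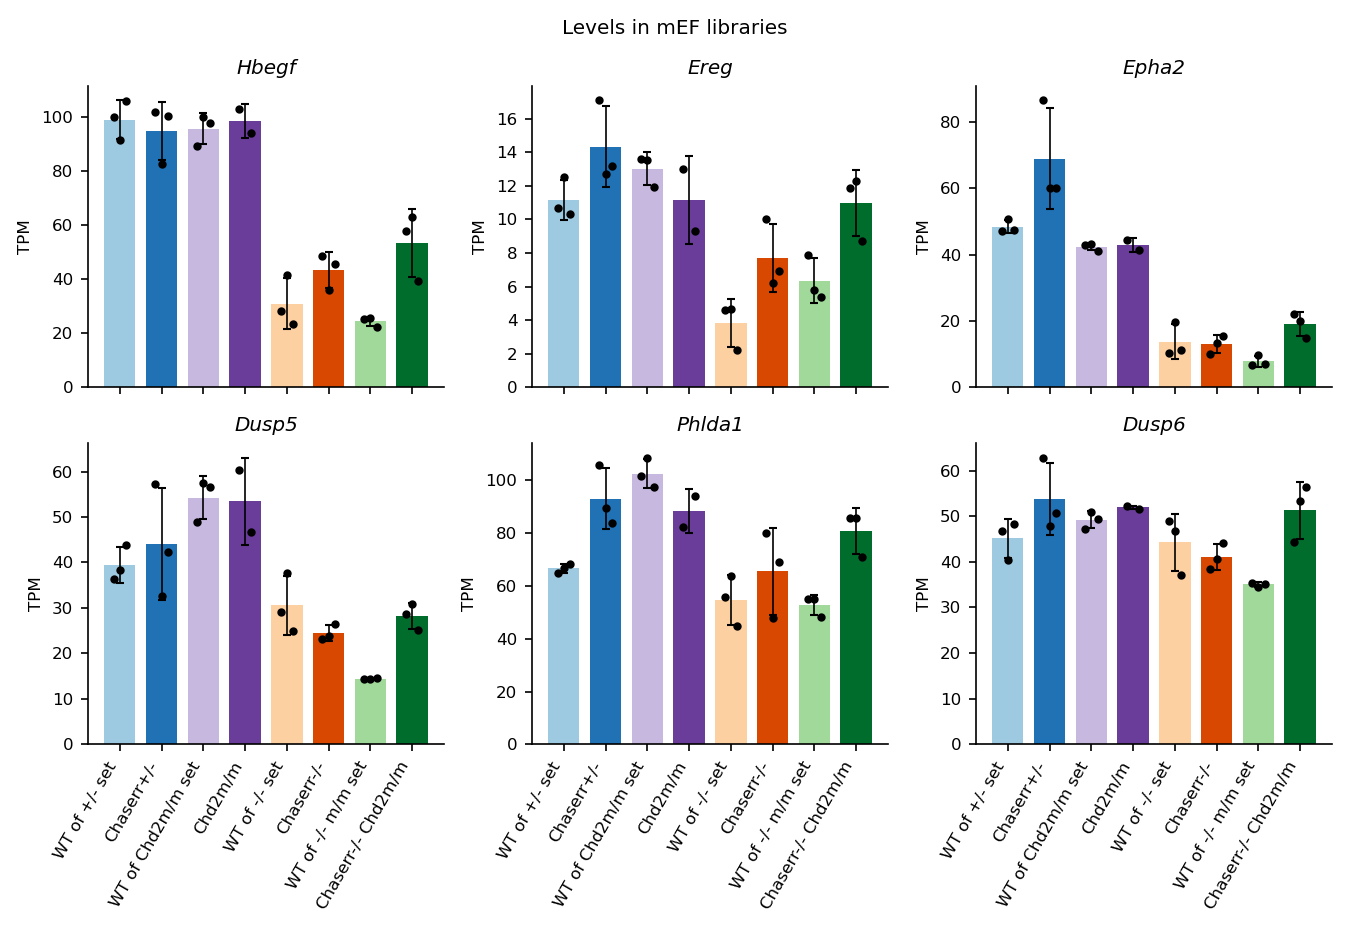
TPM of 6 of the genes in the 8 mEF groups, each WT group beside its mutant; bars are means, error bars SD and points libraries. Hbegf and Ereg are lowest in the WT cultures of the 2 sets at the right, Epha2 is low in these and in Chaserr-/- mEFs, and in Hbegf (mean 53.3 TPM) and Epha2 the double mutants lie between these and the 2 sets at the left.

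In Hbegf and Epha2 the WT cultures of the 4 sets differed by more than any mutant did from its own WT cultures. Hbegf in WT mEFs was at 99.7, 91.5 and 106 TPM in the Chaserr+/- set and 89.2, 100.0 and 97.5 TPM in the Chd2m/m set, but at 28.01, 41.4 and 23.3 TPM in the Chaserr-/- set and 25.0, 25.6 and 22.3 TPM in the double mutant set. The mean of the highest set was 4.07 times that of the lowest. For Epha2 the means ran from 48.5 TPM in the Chaserr+/- set to 7.80 TPM in the double mutant set, 6.21-fold, for Dusp5 the fold was 3.77 and for Ereg 3.41. The double mutant mEFs, although above their own WT mEFs, had less Hbegf and Epha2 than every WT library of the Chaserr+/- and Chd2m/m sets. Dusp6 (1.40-fold) and Tgfa (1.49-fold) varied least between the sets.

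Against all 12975 genes with a mean of at least 1 TPM in WT mEFs, the range between set means, on the log2 scale with 0.1 TPM added, was at the 96.0th percentile for Epha2, the 91.8th for Hbegf and the 90.3rd for Dusp5. It was at percentile 13.2 for Dusp6 and 18.2 for Tgfa, and the median gene had a range of 0.94. Within a set the spread was smaller: the SD on the same scale was 0.23 for Hbegf and 0.29 for Epha2, against a median of 0.16 over all genes.

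A test of the WT mEFs of the Chaserr+/- set against those of the Chaserr-/- set, added after their values were seen, called 7 of the 10 genes, in a comparison that called 54.1% of all genes. In the Chaserr+/- set 6 were higher, against 26.6% of all genes. Epha2 had a log2 change of 1.83 (SE 0.180, edgeR adjusted p = 1.31e-05), Hbegf 1.69 (SE 0.164, edgeR adjusted p = 1.16e-05), Ereg 1.55 (edgeR adjusted p = 0.000104) and Dusp4 0.90 (edgeR adjusted p = 0.00389). Dusp5 (0.38) and Phlda1 (0.30) passed as well. Spry4 was lower, at -0.49 (SE 0.167, edgeR adjusted p = 0.0288), and Areg (1.01), Tgfa (-0.35) and Dusp6 (0.04) did not pass. Without WT replicate 1 of the Chaserr+/- set 4 genes passed, Dusp5, Phlda1 and Spry4 no longer among them, and each of these 3 was also lost without some other library. Pregnancy, culture and library preparation cannot be told apart here.

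Several immediate early genes differed in the other direction. Fos was at 8.75 ± 0.657 TPM (SD, n = 3) in WT mEFs of the Chaserr+/- set and 181 ± 19.0 TPM (SD, n = 3) in those of the Chaserr-/- set, a log2 change of -4.37 (SE 0.111, edgeR adjusted p = 2.03e-09). Fosb (-4.47, edgeR adjusted p = 1.59e-08) and Egr1 (-3.01, edgeR adjusted p = 2.03e-09) differed likewise, as did the phosphatase gene Dusp2 (-2.48) and the receptor gene Erbb3 (-1.89). The Chd2m/m set resembled the first, with Fos at 11.5 ± 0.343 TPM (SD, n = 3) in WT, and the double mutant set the second, at 150 ± 7.38 TPM (SD, n = 3). Of 18 genes on the immediate early list 3 were higher and 9 lower in the Chaserr+/- set. Marker genes of other cells moved too: 16 of 17 macrophage genes and 10 of 11 epithelial genes tested were lower in the Chaserr+/- set, where the macrophage list summed to between 320 and 430 TPM against between 1350 and 1610 TPM, and the epithelial list to between 172 and 204 against between 215 and 398 TPM. Their part in the members' difference was not tested.

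**Figure D3:**
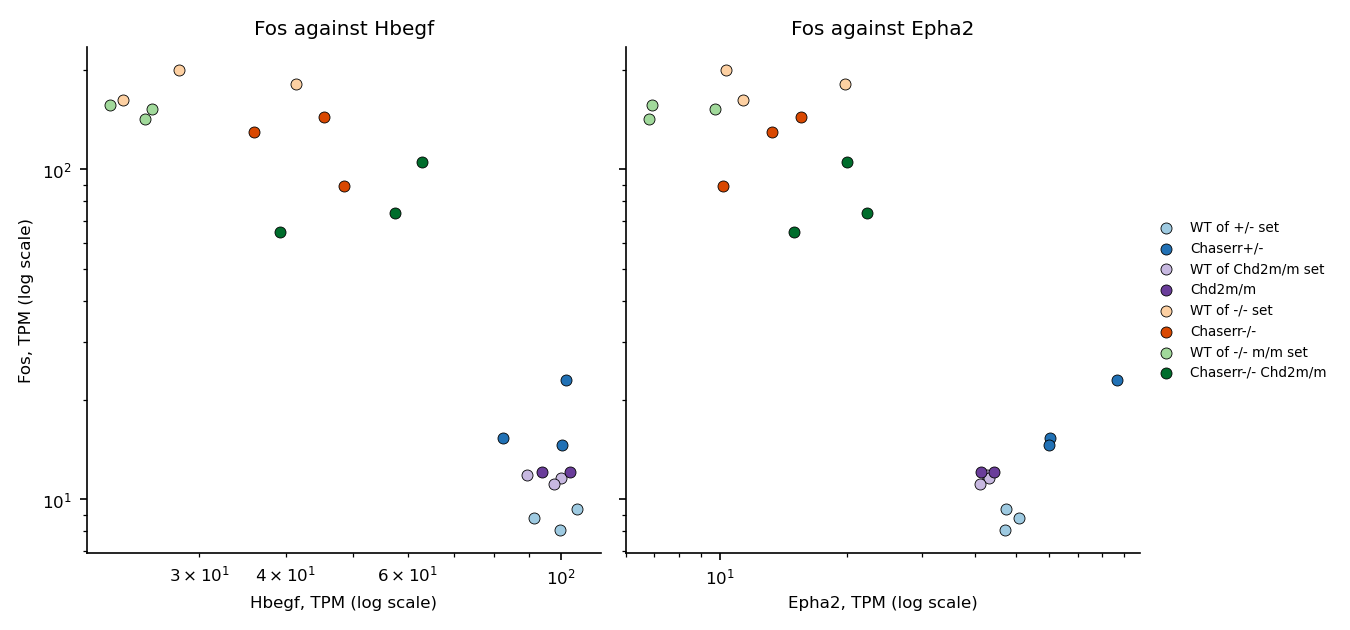
TPM of Fos against that of Hbegf (left) and Epha2 (right) in the 23 mEF libraries, both axes logarithmic, 1 point a library. The 11 libraries of the Chaserr+/- and Chd2m/m sets have Fos below every library of the other sets and Hbegf at 82.5 TPM or more, and the 12 of those sets have Fos at 64.6 TPM or more and Hbegf at 63.0 TPM or less.

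In Chaserr-/- mEFs none of the 9 genes tested passed (Areg was too low), where edgeR called 0.118% of genes and 33.9% had an unadjusted p under 0.05. Ereg came closest. It was at 4.61, 4.66 and 2.20 TPM in WT and at 10.0, 6.21 and 6.93 TPM in Chaserr-/- mEFs, with no overlap, a log2 change of 0.94 (SE 0.290, edgeR adjusted p = 0.0649). It passed with DESeq2 (adjusted p = 0.0143), which called 22.9% of genes, and also with no filter on low counts, in a fit across all mEF groups and without Chaserr-/- replicate 2. Hbegf was at 28.01, 41.4 and 23.3 TPM in WT and 48.5, 35.9 and 45.4 TPM in Chaserr-/- mEFs, a log2 change of 0.42 (SE 0.207, edgeR adjusted p = 0.181). These groups overlapped, since WT replicate 5 lay above Chaserr-/- replicate 2. That WT library was the highest of its group in 7 of the 10 genes. Epha2, the other starting point in double mutants, had a log2 change of -0.14 (SE 0.251, edgeR adjusted p = 0.707) and Dusp5 one of -0.39 (SE 0.180, edgeR adjusted p = 0.157). Among all genes, 26.2% had ranges without overlap that were higher in mutants, and 1 of these 9 did. None of the 67 other pathway genes tested passed, and their median was -0.21 against -0.02 for all genes. Among the markers, 2 of 17 macrophage genes passed, both lower in Chaserr-/- mEFs (summed 1040 to 1100 TPM against 1350 to 1610 TPM), and the epithelial list, of which no gene passed, summed to between 413 and 467 TPM against between 215 and 398 TPM. Their part in these values was not tested.

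In Chaserr+/- mEFs none of the 10 genes passed edgeR's test, which called 0.173% of genes (8.36% at an unadjusted p under 0.05). For 4 genes every Chaserr+/- library lay above every WT library, against 8.88% of all genes. Phlda1, a gene induced by ERK signalling, was at 64.9, 66.7 and 68.3 TPM in WT and at 106, 89.5 and 83.7 TPM in Chaserr+/- mEFs, a log2 change of 0.45 (SE 0.100, edgeR adjusted p = 0.150). It passed with DESeq2 (adjusted p = 0.0262), which called 0.574% of genes. Epha2 was at 47.2, 50.8 and 47.4 TPM in WT and at 86.6, 60.2 and 59.98 TPM in Chaserr+/- mEFs, a log2 change of 0.48 (SE 0.131, edgeR adjusted p = 0.256). Ereg (0.33) and Tgfa (0.38) were the other genes without overlap, and Hbegf, at -0.09, overlapped. Chaserr+/- replicate 1 was the highest of its group in 9 of the 10 genes. Of the 66 other pathway genes tested, Egr1 passed, an immediate early transcription factor, at 135 ± 24.8 TPM (SD, n = 3) against 65.7 ± 1.24 TPM (SD, n = 3), a log2 change of 1.02 (SE 0.118, edgeR adjusted p = 0.00728).

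In Chd2m/m mEFs, with 2 libraries, the members lay close to WT and none passed (0.0145% of genes called, 4.51% at an unadjusted p under 0.05). Hbegf was at 103 and 94.0 TPM against 89.2, 100.0 and 97.5 TPM in WT, a log2 change of 0.05 (SE 0.0814). Epha2 had a log2 change of 0.02 (SE 0.0697), and the largest departures in the phosphatases, Phlda1 and Spry4 were -0.21 for Phlda1 (SE 0.0830, edgeR adjusted p = 0.937) and 0.08 for Dusp6 and Spry4. Phlda1 was below WT and Dusp6 above WT without overlap, as 18.0% of all genes were in either direction. Areg (0.35) and Ereg (-0.21) had standard errors of 0.363 and 0.135.

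The difference between the Chaserr-/- effect and the Chd2m/m effect passed for 1 gene of the 10, Ereg, at 1.16 (SE 0.341, edgeR adjusted p = 0.0371) on the log2 scale, where 11.0% of all genes passed. Leaving out Chaserr-/- replicate 1 gave an adjusted p of 0.116, and leaving out any one of 5 other libraries also took it above 0.05, at most to 0.152 without Chd2m/m replicate 2. Of the Chaserr-/- effect against the Chaserr+/- effect no member passed (13.3% of all genes did), with 0.51 for Hbegf (edgeR adjusted p = 0.151) and -0.62 for Epha2 (edgeR adjusted p = 0.140). Among other pathway genes, Egr1 differed by -1.92 (edgeR adjusted p = 0.000159) and Fos by -1.64 (edgeR adjusted p = 0.00452) in that comparison. The 2 comparisons share the Chaserr-/- set.

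**Figure D4:**
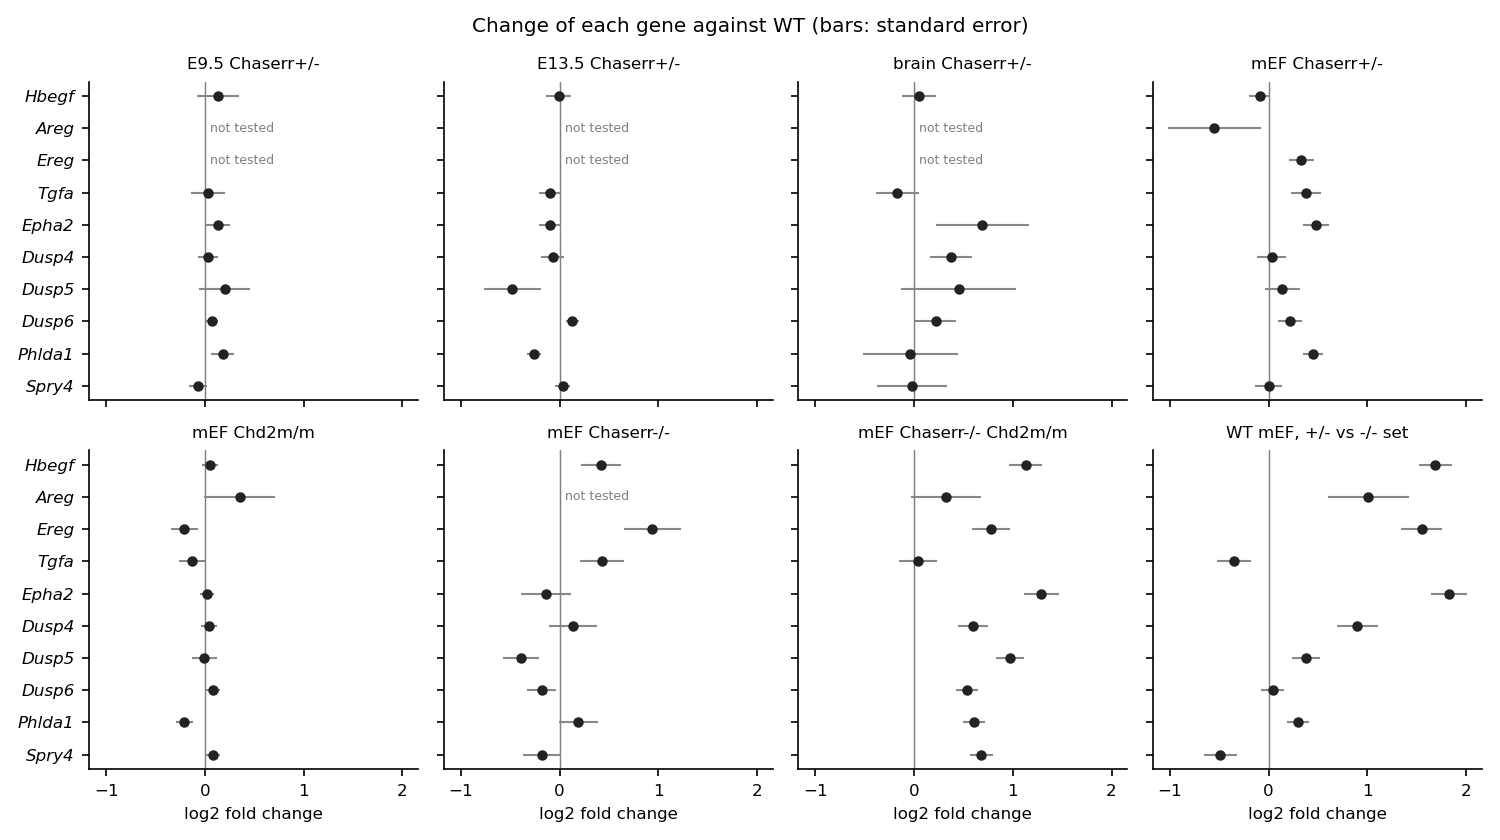
Log2 fold change of each gene (points) with its standard error (bars) in 7 comparisons of a mutant with its WT and in the comparison of 2 WT mEF sets; "not tested" marks genes too low for the test. Hbegf and Epha2 lie above 1 in the double mutant and in the comparison of WT sets, and no gene passed the test in the 6 other panels.

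In Chaserr+/- embryos and brains none of the 8 genes that could be tested passed. In E9.5 embryos edgeR called no gene at all (0.0%, with 3.12% at an unadjusted p under 0.05, 5 genes with DESeq2), and the log2 fold changes ran from -0.07 for Spry4 to 0.20 for Dusp5. WT replicate 3 and Chaserr+/- replicate 3 were each the highest of their group in 7 of 8 genes. In E13.5 embryos, where 0.0314% of genes were called, Phlda1 was at 24.3, 26.6 and 27.3 TPM in WT and at 19.0, 22.3 and 21.7 TPM in Chaserr+/-, without overlap, a log2 change of -0.26 (SE 0.0709, edgeR adjusted p = 0.732). Dusp5 also did not overlap, at -0.48 (SE 0.290, edgeR adjusted p = 0.742), and 8.43% of all genes had such a gap downward (6.34% had an unadjusted p under 0.05).

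In brains edgeR called no gene (0.0%, with 2.47% at an unadjusted p under 0.05, 1 gene with DESeq2). Dusp4 was at 5.69, 4.96 and 5.35 TPM in WT and at 6.56, 6.81 and 7.49 TPM in Chaserr+/-, the only one of the 8 genes without overlap (4.44% of all genes had such a gap upward), with a log2 change of 0.37 (SE 0.212, edgeR adjusted p = 1). Tgfa, the ligand that is abundant there, was at 34.8, 30.6 and 24.3 TPM in WT and 29.8, 23.1 and 28.4 TPM in Chaserr+/-, a log2 change of -0.17 (SE 0.220, edgeR adjusted p = 1). The lowest value of each group lay in a different kit. Standard errors reached 0.584 for Dusp5, whose brain levels ran from 6.04 to 25.1 TPM.

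Over the 23 mEF libraries, the genes tended to vary together between cultures of the same genotype and set. With the mean of each of the 8 groups taken off the log2 CPM, 37 of the 45 pairs of genes had a Pearson r above 0, with a median of 0.36 (n = 23), against a median of 0.01 over all pairs of 13000 genes, of which 50.6% lay above 0. The highest r were 0.76 for Hbegf and Phlda1, 0.72 for Ereg and Phlda1 and 0.71 each for Hbegf with Dusp4, Hbegf with Dusp5 and Dusp5 with Spry4. Hbegf and Epha2 had 0.61. The negative values all involved Areg or Tgfa, down to -0.37 for Areg and Epha2. All these libraries share a kit, their depths differ, and the values are a description. Where the deviation was taken from the WT mean of each set, so that differences between genotypes entered, the genes most like Hbegf were Errfi1 (r = 0.94, n = 23), Plaur, the urokinase receptor gene (0.93), and Krt19 (0.92). Those most like Epha2 were Fgd3 (0.96), Klhdc8a (0.92) and the phosphatase gene Dusp14 (0.92). The 23 libraries include the double mutants, which chose the pair.

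The RIP asked which RNAs are taken down with CHD2. The counts used here are of annotated transcripts, while the paper counted reads over whole gene bodies and reported many in introns. A gene that did not pass here is thus not shown to be unbound. In Neuro2a, 8 of the 10 genes could be tested, since Areg and Ereg were at or near 0. Spry4 and Dusp6 were higher with the CHD2 antibody than with IgG, 2 of 8, where 11.5% of all genes were called and 11.1% called higher. Spry4 was at 88.3 and 61.4 TPM with CHD2, 10.6 and 23.4 TPM with IgG and 15.9 and 27.1 TPM in the input, a log2 fold change over IgG of 1.97 (SE 0.401, edgeR adjusted p = 0.0183). Dusp6 was at 271 and 188 TPM with CHD2, 42.8 and 92.6 TPM with IgG and 141 and 188 TPM in the input, 1.59 over IgG (SE 0.393, edgeR adjusted p = 0.0347). Against the input, a comparison added after the data were seen, Dusp6 had a log2 change of -0.03 (edgeR adjusted p = 0.962).

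Phlda1 was at 253 and 148 TPM with CHD2, 34.2 and 83.8 TPM with IgG and 42.0 and 49.4 TPM in the input. It just missed the threshold over IgG (1.61, SE 0.441, edgeR adjusted p = 0.0501) and passed over the input (1.61, edgeR adjusted p = 0.0427), where 15.1% of genes were called. Spry4 had an adjusted p of 0.0550 over the input (1.31, edgeR). The ligands did not pass over IgG, with -0.44 for Hbegf (edgeR adjusted p = 0.370) and -0.89 for Tgfa (edgeR adjusted p = 0.212). Over the input they had -0.47 (edgeR adjusted p = 0.347) and 0.90 (edgeR adjusted p = 0.215). The sign for Tgfa thus depended on the control. The neuron list summed to between 3010 and 3730 TPM with IgG, 2190 and 2570 with CHD2, and 828 and 904 in the input. The macrophage list had the same order, and the fibroblast and neuroblastoma lists were highest in the input. Their part in these values was not tested. The IgG libraries stood apart from each other: Dusp4 was at 20.7 TPM in IgG replicate 1, with 20050508 counts, and at 129 TPM in replicate 2, with 11285159. Without IgG replicate 2, 6 of the genes passed, 4 higher with CHD2 and Tgfa and Epha2 lower, without IgG replicate 1 only Spry4, and without either CHD2 library none. Of 69 other pathway genes tested 14 passed over IgG, all higher, among them the ephrin gene Efna5 (2.95, edgeR adjusted p = 0.00911), the protease gene Adam10 that sheds EGF-family ligands (2.18, edgeR adjusted p = 0.0120) and the inhibitor genes Spry1 (2.16, edgeR adjusted p = 0.0342) and Spred2 (1.92, edgeR adjusted p = 0.0100). Over the input 13 of the 69 were higher and 2 lower. Efna5 passed there as well (2.39, edgeR adjusted p = 0.0156), and Adam10 did not. Spry1 was at a mean of 213 TPM with CHD2, 42.1 TPM with IgG and 146 TPM in the input.

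**Figure D5:**
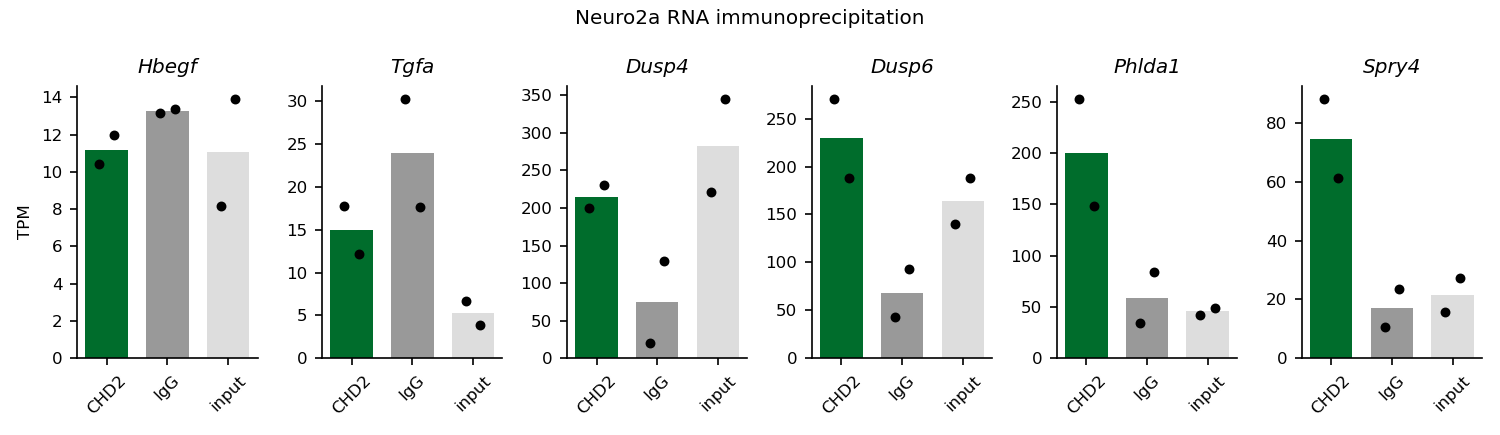
TPM of 6 of the genes in the CHD2, IgG and input libraries of the Neuro2a RIP; bars are means of 2 libraries, shown as points. Spry4 and Phlda1 are higher with CHD2 than in both controls, and the 2 IgG libraries of Dusp4 differ by more than 100 TPM.

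Hbegf lies at chr18:36664583-36675459 (mm9) on the minus strand. ATAC-seq peaks, called by the authors in each library, were looked up within 300 bases of the 5′ end of each gene (mm9). Such a promoter peak was found for 111 of the 120 pairs of gene and library (92.5%), against between 31.9% and 59.3% of all 22380 protein-coding genes in a library. The share among only those genes that are expressed in mEFs was not computed. The 9 missing pairs lay in 2 libraries with few peaks, WT replicate 2 (18661 peaks) and double mutant replicate 1 (28349) of the double mutant set, and Epha2, Areg and Tgfa lacked a peak in both. The other 10 libraries had between 58324 and 93597 peaks. At Hbegf the fold enrichment over local background was 7.30, 4.83 and 8.21 in WT and 6.36, 8.05 and 8.22 in double mutants, which overlapped. At Epha2 it was 4.56 and 6.60 in the WT libraries with a peak and 8.56 and 8.01 in the double mutant ones. Among libraries with a peak, Tgfa (5.69 and 5.74 against 8.89 and 11.3) and Ereg (5.78 to 7.01 against 7.28 and 9.21) likewise had the higher values in double mutants. Double mutant replicate 1 had no peak at Epha2, Tgfa or Ereg and so gave no value to these gaps. The share of all promoters with such a gap was not computed, and no conclusion is drawn from them. Ereg had a peak in 3 WT and 2 double mutant libraries. The values of all other members overlapped, with Spry4 at a mean of 8.13 in WT and 6.83 in double mutants. In the Chaserr-/- set, Hbegf had 13.1, 9.98 and 10.7 in WT and 10.7, 9.29 and 7.06 in Chaserr-/- mEFs, and Epha2 5.48, 3.98 and 4.30 against 6.67, 5.38 and 5.38. Fold enrichments at Epha2 lay low among promoter peaks, at the 30.9th percentile or below in every library, and no test was made of them.

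Within 50000 bases of the start sites, open regions were as a rule shared between genotypes. In the double mutant set no region near any of the 10 genes was found in all 3 mutants and no WT library or the reverse (0.133% and 0.0169% of all regions). In the Chaserr-/- set, 2 of 11 regions near Hbegf, 1 of 16 near Dusp6 and 1 of 7 near Spry4 were found in all 3 Chaserr-/- libraries and in no WT library, against 1.41% of all 122404 regions. More peaks were called in Chaserr-/- than in WT libraries of this set (62610 to 93597 against 58324 to 70516), and the part of this in the 4 regions was not tested.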

How the data were processed

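Expected counts, TPM and FPKM per gene were made by the authors with RSEM on RefSeq genes and deposited per library, without normalization between libraries. RIP libraries were made from rRNA-depleted RNA. ATAC-seq reads were aligned by the authors with Bowtie2 to mm9 and peaks called with MACS2 in each library, and the deposited lists give a score, a fold enrichment (a ratio) and -log10 p-values and q-values, of which the fold enrichment and the -log10 q were used. Gene IDs were named through RefSeq (23449 of 24990 rows matched).

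The rounded expected counts went into edgeR 4.0.16 under R 4.3.3 (quasi-likelihood test after filterByExpr and TMM scaling, Benjamini-Hochberg adjustment over all genes tested, threshold 0.05), each mutant against the WT libraries of its own set. DESeq2 1.42.0, filters, scalings, a replicate block and leaving out each library served as alternatives. Per the study, Chaserr-/- mEFs were derived independently, and the ATAC-seq mEFs of the Chaserr-/- set and its WT came from separate embryos. For the other groups this is not stated in the sources used here, and p-values then measure the spread between these libraries. Replicate numbers paired brains (correlations of deviations 0.437, 0.529 and 0.747, with replicate 3 also in another kit). On simulated data with 200 genes changed by 1.5 (log2), 43% were called in brains, 15.5% in the RIP against IgG and at least 96% in embryos and in mutant against WT mEFs. The simulation gave every gene of a comparison the same spread. No member changed by as much as 1.5 between a mutant and its WT, so these shares do not say how often such smaller changes would be called. In Chaserr+/- E9.5 embryos Chd2 itself, at a log2 change of 0.66, did not pass (edgeR adjusted p = 0.104).

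The members, pathway lists and marker lists were chosen with earlier results of these data known. Named were all members, up to 5 called pathway genes per comparison with the largest change, and the 3 genes most correlated with Hbegf and with Epha2. Outside this rule, Egfr and, in double mutants, Fos and Errfi1, as well as Fos in the plot and values by mEF set, were named after their values were seen. The 4C data were not analysed here. The score and -log10 p columns of the peak lists were not used.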

Additional observations from a re-analysis of the deposited data

Results flagged for a closer look

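Ereg was the 1 member of 10 that passed a test of the difference between the Chaserr-/- and Chd2m/m effects, where 11.0% of all genes passed. The log2 fold change in Chaserr-/- mEFs less that in Chd2m/m mEFs was 1.16 (adjusted p = 0.0371, edgeR). Leaving out any of several single libraries took it above 0.05. Neither effect passed by itself (edgeR adjusted p = 0.0649 for Chaserr-/- and 0.937 for Chd2m/m). Ereg was at a mean of 7.72 TPM against 3.82 TPM in WT in the Chaserr-/- set, and at 11.2 TPM against 13.0 TPM in the Chd2m/m set. The 2 sets also differed in their WT mEFs, and set and genotype cannot be told apart. No group had enough libraries for a test of outlying samples.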

How the results depend on the processing

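Over 1406 values of single members under alternatives, 1354 stayed on the same side of the threshold, 22 passed it anew and 30 no longer passed, no called value turned its direction, and 74 others, near 0, changed sign. With DESeq2, 1 member passed in Chaserr+/- mEFs and 1 in Chaserr-/- mEFs (edgeR 0 each), and 2 over the input of the RIP (edgeR 1). Over IgG, Phlda1 passed beside Dusp6 and Spry4 (DESeq2 adjusted p = 0.00866). Between WT mEF sets Dusp5 no longer passed (DESeq2 adjusted p = 0.062). In Chaserr-/- mEFs 1 passed with no filter on low counts and 1 in a fit across all mEF groups. Over the input of the RIP, 2 passed with at least 10 counts in every library and 3 with the replicate block.

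Leaving out 1 library in turn gave from 0 to 1 members in Chaserr-/- mEFs, from 0 to 6 over IgG and 0 over the input in the RIP, from 4 to 6 between WT mEF sets, from 0 to 2 for the Chaserr-/- less the Chd2m/m effect and from 0 to 1 for the Chaserr-/- less the Chaserr+/- effect. In double mutants, from which the set was drawn, the median of the members is a description without a test. It stayed between 0.63 and 0.70, and was 0.64 with the replicate block. With that block no member passed in Chaserr+/- embryos, brains and mEFs or in Chd2m/m mEFs (0 each), and 3 passed over IgG. No paired analysis was possible for the Chaserr-/- set because its WT libraries carry other numbers.

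Counts over all genes moved more: 2614 with DESeq2 against 16 in Chaserr-/- mEFs, 224 against 13 in double mutants, 82 against 23 in Chaserr+/- mEFs, 3480 against 1707 over IgG and 2598 against 1657 for the Chaserr-/- less the Chd2m/m effect. In the other Chaserr+/- tissues and in Chd2m/m mEFs it called 5 (E9.5), 23 (E13.5), 1 (brain) and 12 genes, against 0, 5, 0 and 2. Leaving out 1 library moved these counts from 2 to 2827 in Chaserr-/- mEFs, from 3 to 199 in double mutants, from 3 to 54 in Chaserr+/- mEFs, from 0 to 6468 over IgG, from 7 to 3460 for the Chaserr-/- less the Chd2m/m effect and from 331 to 3766 for the Chaserr-/- less the Chaserr+/- effect, so the shares of all genes given beside the members move with single libraries there. In Chaserr-/- mEFs the count also rose to 1434 with no filter, 1383 with at least 10 counts in every library, 885 with upper-quartile scaling and 4851 in a fit across all mEF groups. The cause was not tested. Members highest in a WT mEF set numbered 7 by TPM and 9 by CPM, which takes no account of length. Without the 2 ATAC-seq libraries with few peaks, chosen after seeing the data, every member had a promoter peak in every library (100%), and 72.5% of pairs had one at a -log10 q of at least 10.

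Few reads stand behind members near 1 TPM or below, such as Areg. In brains and the RIP the spread between libraries was the widest (biological coefficient of variation 0.334 and 0.348, against at most 0.175 elsewhere).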
